A study of Mus musculus with 15 samples.

Results

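Piwi-interacting RNAs (piRNAs) are small RNAs of the germ line that are loaded onto PIWI proteins and guide them to transposon transcripts and other targets. In the mouse testis their long precursors are handled by RNA helicases, Tudor-domain proteins and scaffolds that gather in germ granules, which lie between mitochondria in spermatocytes and become the chromatoid body of round spermatids. The transcription factor A-MYB, encoded by Mybl1, drives the precursors of the pachytene stage and several genes of the pathway itself, and loss of many of these genes arrests spermatogenesis.

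The expression of 10 genes of this pathway, chosen by name, was described in 15 testis RNA-seq libraries. They are 10 of the 23510 gene IDs of the table: the PIWI proteins Piwil1, Piwil2 and Piwil4, the helicases Mov10l1 and Ddx4, the Tudor-domain genes Tdrd1, Tdrd6 and Tdrd9, and Mael and Asz1. Values are FPKM, fragments scaled by gene length and library total, so levels may be compared between genes. Of the 10, 9 averaged at least 1 FPKM across all libraries and were tested, while Piwil4 was below this limit.

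All mice were of the ICR strain, and there were 5 groups of 3 libraries. Con is the control group, whose genotype is given as control, and the sources used here do not say whether these testes were injected or how old the animals were. MNC is the vector control, which received lentivirus with a control shRNA (shNC). The M1, M3 and M5 groups received lentivirus against the muscarinic acetylcholine receptors of those names, with 3 shRNAs mixed per receptor. The virus was injected into the testes at 5 weeks of age, and testes were collected after 10 days. Which cells took up the virus was not measured here, so each value is a mean over infected and uninfected cells of a whole testis. The labels do not say whether libraries of a group come from separate mice, and p-values then measure only the spread between these libraries, which may be technical. They name no batch.

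The targeted receptors were too low to check the labels. Mean FPKM was 0.113 for Chrm1 in M1 against 0.107 in the vector control (p = 0.9 by exact permutation), 0.0767 against 0.0367 for Chrm3 in M3 (p = 0.3, exact), and 0.32 against 0.363 for Chrm5 in M5 (p = 0.5, exact), so no decrease was detectable at these levels. M3 replicate 3 stood apart from its group: Tmem89 was listed at 0 there and in all 3 M5 libraries and ranged from 26.4 to 47.5 FPKM in the other 11. H2ac23 had 19.1 FPKM there and 20.8, 22.6 and 28.7 in M5 but was listed at 0 in the other 11, and Fabp3 was listed at 0 there, at 0, 0 and 0.84 in M5 and ranged from 22.4 to 72.6 in the other 11. The main results on M3 are therefore also given without this library. The labels' extraction protocol mentions sperm, but markers of cells that sperm preparations lack were present, with a summed FPKM of 379 to 697 over 10 Sertoli cell genes and of 660 to 3190 over 7 Leydig cell genes.

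The members spanned a wide range of levels. Mael, which is needed for transposon silencing and for processing of pachytene precursors, had a mean of 855 FPKM over the 15 libraries and was the 39th highest of all gene IDs. Ddx4, the germ granule helicase used as a general germ cell marker, followed at 214 FPKM. Tdrd6, a scaffold of the chromatoid body, was at 124 FPKM and Piwil1, the PIWI protein of pachytene piRNAs also known as MIWI, at 109 FPKM, and the library ranges of this pair overlapped. Tdrd1 (45.4 FPKM), Piwil2 (37.9), Tdrd9 (34.0) and Mov10l1 (23.5) came next. In this stretch the range of each gene over all 15 libraries overlapped that of the gene after it. Within each group they did not overlap, and this order held in every library. Asz1, a scaffold on the mitochondrial surface, had 16.0 FPKM and lay below Mov10l1 in every library.

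Piwil4, also known as MIWI2, acts in the nucleus of fetal germ cells. Its values were 0.23, 0.14 and 0.22 FPKM in Con, 0.18, 0.23 and 0.16 in MNC, 0.14, 0.12 and 0.17 in M1, 0.24, 0.14 and 0.15 in M3, and 0.14, 0.19 and 0.2 in M5. These values overlapped in all 5 groups. The exact permutation p over the 7 comparisons ranged from 0.2 to 1, where 3 against 3 libraries cannot go below 0.1. Its gene overlaps an antisense gene, Gm10706. Because the study's methods name no strand-marking step, reads from any exon sequence that these genes share cannot be told apart. Overlap of their exons was not checked.

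The promoters of 8 members were given in RefSeq windows of assembly GRCm38.p6, the build mm10 that the submitters name, from position -250 relative to each transcription start to 50 bases after it. The letters searched, on both strands, were AACNG (the core of the MYB site), CACGTG (the E-box) and TGACGTCA (the full cyclic AMP response element). AACNG was in all 11 windows of the 8 members, but also in 80.3% of the 32851 windows of all genes. CACGTG was in 7 of 11 windows, against 7.2% of all windows, and overlapping windows of Tdrd1 held the same site. By gene it was in the windows of 6 of 8 members, and no share per gene is given for all genes. TGACGTCA was in none of the member windows, against 1.8% of all windows. The stretches around CACGTG are given because its share among the members with a window was farthest above that of all windows, a choice made after the counts were seen. Capitals mark the CACGTG letters, and no match shown overlaps a match of the other motifs.
Piwil1, chr5:128736047-128736117, plus strand: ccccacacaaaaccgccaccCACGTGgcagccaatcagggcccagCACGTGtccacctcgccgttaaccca
Mov10l1, chr15:88982744-88982773, plus strand: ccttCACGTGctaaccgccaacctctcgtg
Ddx4, chr13:112652314-112652359, minus strand: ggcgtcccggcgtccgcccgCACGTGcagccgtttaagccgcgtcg
Tdrd1, chr19:56826178-56826208, plus strand: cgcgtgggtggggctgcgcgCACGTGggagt
Tdrd9, chr12:111971374-111971419, plus strand: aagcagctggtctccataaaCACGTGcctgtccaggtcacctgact
Tdrd9, chr12:111971444-111971489, plus strand: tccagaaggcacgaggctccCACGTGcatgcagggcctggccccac
Mael, chr1:166238942-166238987, minus strand: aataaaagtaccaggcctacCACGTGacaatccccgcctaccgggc

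Piwil1 and Tdrd9 held 2 matches each in a window, as did 0.6% of all windows. The Tdrd1 stretch ends at position -1 from its start and the Ddx4 stretch at -4, while that of Mael runs from -243 to -198. Asz1 and Piwil4 had windows without CACGTG. A match is a description of letters and not of a bound site.

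The comparison of MNC with Con sets the vector control beside the other control group. Age and injection of the Con animals are not given, so the vector cannot be told apart from these in the values below. All 9 members tested were lower in MNC, with no overlap between the 3 MNC and the 3 Con libraries, where 31.5% of all genes tested were lower without overlap. By limma with Benjamini-Hochberg adjustment over the 14514 genes tested, 6 members were called lower at an adjusted p under 0.05, against 12.4% of all genes called lower and 20.4% called in either direction. The median log2 difference of the members was -0.31 and that of all genes was -0.095.

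Among the PIWI proteins, Piwil2, also known as MILI, had 47.4, 47.6 and 45.7 FPKM in Con and 34.8, 35.5 and 34.6 FPKM in MNC. The Con values lay together, well above those of MNC. It fell by 25.5%, a log2 difference of -0.41 (SE 0.0421, n = 3 against 3, limma adjusted p = 0.0138). Piwil1 had 134, 136 and 142 FPKM in Con and 105, 102 and 126 in MNC. MNC replicate 3 was closest to Con and the groups did not overlap. The log2 difference of -0.31 (SE 0.0859) did not pass the threshold (limma adjusted p = 0.0515), and it passed without MNC replicate 3 (-0.40, limma adjusted p = 0.0423). Over its 17 alternatives the limma adjusted p ranged from 0.0312 to 0.475, and 4 of them passed.

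The helicases were lower together. Mov10l1, which binds precursors and feeds them into processing, had 28.9, 30.1 and 29.2 FPKM in Con and 22.5, 23.1 and 21.4 in MNC. Every MNC library was below every Con library, and the gene fell by 24.1% (log2 difference -0.38, SE 0.0498, limma adjusted p = 0.0168). Ddx4 had 224, 240.2 and 218 FPKM in Con and 195, 191 and 189.7 in MNC. It fell by 15.5% (log2 difference -0.24, SE 0.0492, limma adjusted p = 0.0278). Tdrd9, a helicase with a Tudor domain, had 41.4, 42.0 and 41.6 FPKM in Con and 28.8, 31.3 and 33.5 in MNC, where the libraries spread more widely than in Con. It fell by 25.1% (log2 difference -0.41, SE 0.0628, limma adjusted p = 0.0192). Tdrd9 overlaps Rd3l on the opposite strand, and Piwil1 overlaps 4930553I04Rik likewise. Reads from any exon sequence that these pairs share cannot be told apart here, and overlap of exons was not checked.

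Both other Tudor-domain genes were called. Tdrd1, which binds methylated arginines of MILI, had 53.7, 57.7 and 55.1 FPKM in Con and 45.2, 41.0 and 46.4 in MNC, and fell by 20.4% (log2 difference -0.32, SE 0.0613, limma adjusted p = 0.0256). Tdrd6 had 142, 143 and 138 FPKM in Con and 122.8, 122.6 and 121 in MNC. The libraries of each group lay close together, and the gene fell by 13.5% (log2 difference -0.21, SE 0.0378, limma adjusted p = 0.0244). Mael had 879, 915 and 861 FPKM in Con and 819, 831 and 842 in MNC (log2 difference -0.09, SE 0.0447, limma adjusted p = 0.174), and Asz1 had 15.6, 18.03 and 17.4 in Con and 14.7, 14.4 and 13.6 in MNC (log2 difference -0.24, SE 0.0707, limma adjusted p = 0.0576). Neither passed the threshold, and Asz1 passed in 2 of its 17 alternatives (lowest limma adjusted p = 0.0313).

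The count of 6 changed with the libraries kept, with the scale and with the genes tested. It rose to 8 with a filter of 5 FPKM or with all 5 groups in one fit, where Piwil1 and Asz1 passed too, and to 7 with quantile normalization. It fell to 4 without the trend over GC content. No member was called without Con replicate 1, 1 (Piwil2) without Con replicate 2 and 2 (Piwil2 and Mov10l1) without MNC replicate 2. Centring each library on its median left 3 called (Piwil2, Tdrd9 and Mov10l1), and centring on 17 spermatocyte markers left Piwil2 alone (log2 difference -0.21, limma adjusted p = 0.0334). The latter moved the median of all genes from -0.095 to 0.11 by its construction, since it shifts every gene of a library alike. The share of all genes called under each alternative is not given here, so a changed count is not read as particular to the members.

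**Figure D1:**
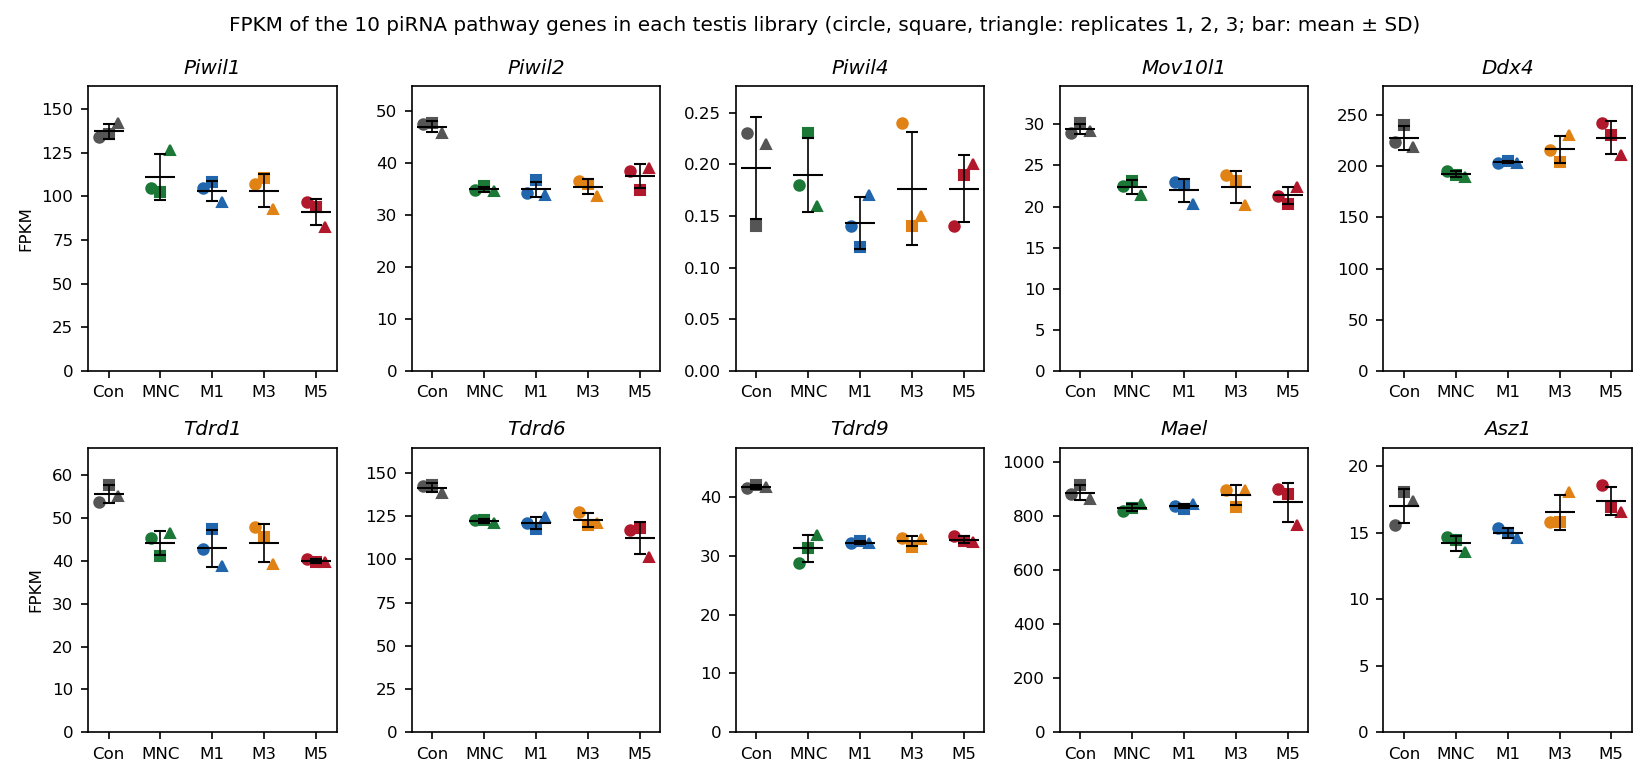
FPKM of each of the 10 piRNA pathway genes in the 15 libraries, 1 panel per gene, with groups on the horizontal axis, a point per library and a bar at the group mean. In the panels of Piwil1, Piwil2, Mov10l1, Tdrd1, Tdrd6 and Tdrd9 all 12 injected libraries lie below the 3 Con libraries, while in those of Ddx4 and Asz1 the M5 points reach the level of Con.

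Germ cell stage markers moved between the same groups. As a median log2 deviation from each gene's mean over the 15 libraries, averaged over a group, the members were at 0.276 in Con and -0.0573 in MNC. The 17 spermatocyte genes (17 of 17 tested) were at 0.133 and -0.0697, and their summed FPKM was 958 to 1005 in Con and 861 to 899 in MNC. The 9 spermatogonial genes were at 0.148 and 0.0364, with overlap (libraries 0.0928 to 0.205 in Con and -0.0114 to 0.106 in MNC). Markers of later stages went the other way, with the 12 round spermatid genes at -0.17 in Con and 0.036 in MNC. The 12 elongating spermatid genes were at -0.581 and 0.159, with a summed FPKM of 13602 to 25152 in Con and 27433 to 33922 in MNC. In bulk tissue, fewer cells of a type and less RNA per cell cannot be told apart, and the part of these stages in the lower piRNA pathway values was not tested.

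**Figure D2:**
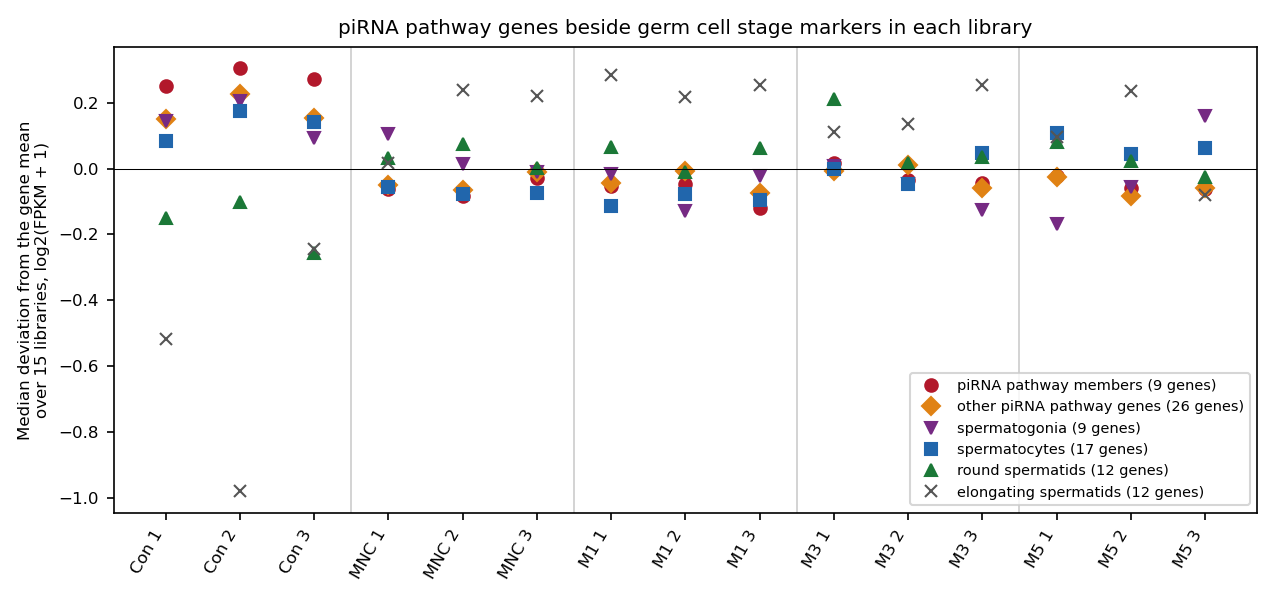
Median deviation of each gene list from the gene means over 15 libraries, in log2(FPKM + 1), for each library by group, with a symbol per list. The piRNA pathway members, the other pathway genes and the spermatocyte markers lie above 0 in the 3 Con libraries, where the elongating spermatid markers lie below 0.

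A further 27 genes of the pathway were listed, and 26 were tested, with Nanos2 below the limit. In MNC against Con, 21 of 26 were lower, with a median of -0.21, and 7 were called, 6 of them lower. Over all genes the median was -0.095, with 20.4% called and 12.4% called lower, so the 7 of 26 were not far above the share of all genes. Stk31, a Tudor-domain gene (log2 difference -0.36), Gpat2, a mitochondrial protein that binds MILI (-0.32), Exd1 (-0.32) and Fkbp6, a co-chaperone (-0.29), fell, as did Tdrd5, which was the smallest of the calls (-0.26). Mybl1 fell from 19.6, 21.9 and 21.2 FPKM in Con to 16.8, 16.1 and 17.0 in MNC (log2 difference -0.31, limma adjusted p = 0.0254). Kif17, a kinesin found in the chromatoid body, was the gene called in the other direction. It had 69.6, 76.4 and 66.8 FPKM in Con and 111, 116 and 114 in MNC, and rose by 0.68 on the log2 scale (limma adjusted p = 0.0107), where 8.03% of all genes were called higher.

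**Figure D3:**
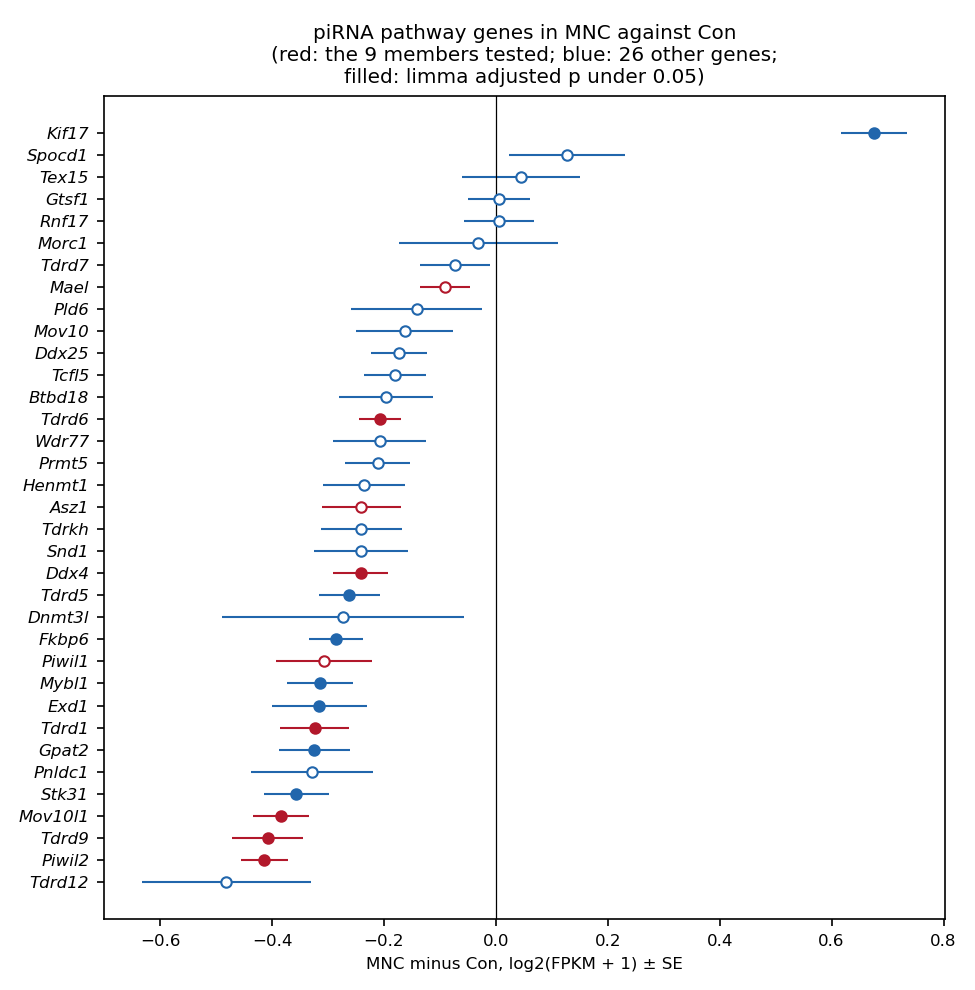
Differences of log2(FPKM + 1) between MNC and Con for the 9 members and the 26 other piRNA pathway genes tested, with standard errors, filled where the limma adjusted p is under 0.05. Kif17 lies far to the right of 0 at 0.68, while the other genes called lie to the left.

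The knockdown groups were compared with the same Con libraries, so these values are not independent of each other or of MNC against Con. In M1, 7 of 9 members were called, all lower, against 23.9% of genes called lower. In M3, 6 were called, all lower, against 15.1% of genes, and 5 without M3 replicate 3. In M5, 6 were called, all lower, against 12.3% of genes. In 6 members (Piwil1, Piwil2, Mov10l1, Tdrd1, Tdrd6 and Tdrd9) all 12 injected libraries were below all 3 Con libraries, against 11.5% of the genes tested. Ddx4 was below all Con libraries in 9 of the 12, Mael in 8 and Asz1 in 6.

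Piwil1 had its lowest group mean in M5, 91.2 ± 7.66 FPKM (SD, n = 3), with 97.1, 93.9 and 82.5 FPKM in the libraries, against 105, 108 and 96.7 in M1 and 107, 110.5 and 92.6 in M3. Its log2 difference from Con was -0.59 in M5 (limma adjusted p = 0.00553), a fall of 33.6%, and -0.41 in M1 and M3 (limma adjusted p = 0.00873 and 0.0281). Without M3 replicate 3 the value in M3 was -0.33 (limma adjusted p = 0.0391). Ddx4 stood in contrast to it, at 242, 231 and 211 FPKM in M5, which overlapped Con. Its log2 difference from Con was 0.001 in M5 (limma adjusted p = 0.994), -0.07 in M3 (limma adjusted p = 0.456) and -0.16 in M1 (limma adjusted p = 0.0424). Asz1 was at 18.6, 16.9 and 16.6 FPKM in M5, also overlapping Con, with a log2 difference of 0.03 (limma adjusted p = 0.82).

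**Figure D4:**
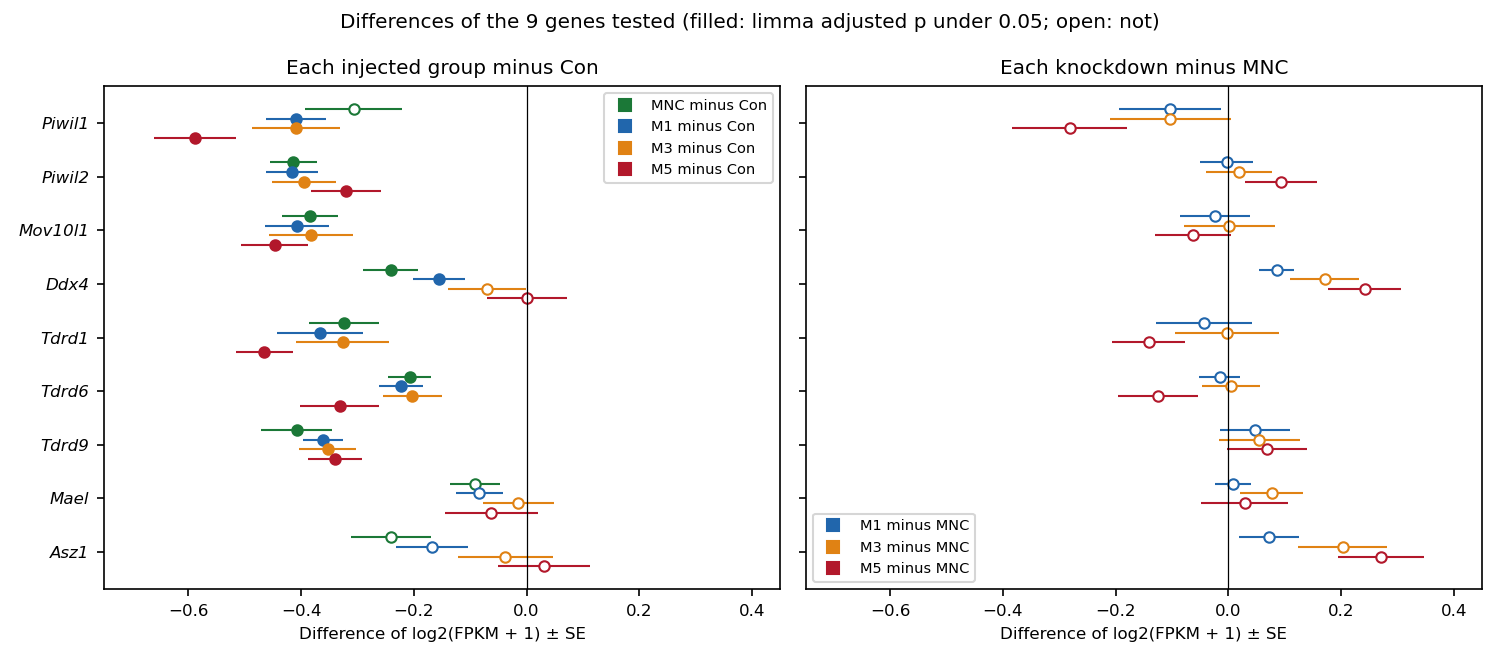
Differences of log2(FPKM + 1) with standard errors for the 9 members tested, each injected group minus Con on the left and each knockdown minus MNC on the right, filled where the limma adjusted p is under 0.05. On the left Piwil1 in M5 lies farthest from 0 at -0.59 and Ddx4 in M5 lies at 0, and on the right no point is filled.

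M5 against MNC sets the M5 group beside the vector control. All 3 M5 libraries shared with M3 replicate 3 the values of Tmem89, H2ac23 and Fabp3 given above, which no MNC, Con or M1 library had. Here and in the comparisons with Con and M1, the M5 shRNA cannot be told apart from this split. The part of the split in the differences was not tested. None of the 9 members was called, against 5.65% of all genes. At an unadjusted p under 0.05 there were 3 of 9, Ddx4, Asz1 and Piwil1, against 24.9% of all genes, a share not far from that of the members. The M5 libraries lay above all MNC libraries for Ddx4 and Asz1, where 16.6% of genes did so, and below all of them for Piwil1, Tdrd1 and Tdrd6, where 15.5% of genes did.

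Ddx4 had 195, 191 and 189.7 FPKM in MNC, and its lowest M5 library was at 211. The log2 difference was 0.24 (SE 0.0645, limma adjusted p = 0.0797). It passed without M5 replicate 3 (0.30, limma adjusted p = 0.0328), after quantile normalization (limma adjusted p = 0.0387) and with all 5 groups in one fit (limma adjusted p = 0.0186), which were 3 of its 18 alternatives, with a limma adjusted p from 0.0186 to 0.994. Asz1 was higher by 0.27 (SE 0.076, limma adjusted p = 0.0888), and passed with all 5 groups in one fit (limma adjusted p = 0.0246). Ddx4 and Asz1 have the lowest GC content of the members, 42.1% and 41.8%, where the other 8 ranged from 45.8% to 53.6%. Without the trend over GC content the differences of Ddx4 and Asz1 were 0.07 and 0.10. The part of GC content in these differences was not tested.

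Piwil1 was lower in M5 than in MNC by a log2 difference of -0.28 (SE 0.103, limma adjusted p = 0.153). Tdrd1 had 40.4, 39.6 and 39.7 FPKM in M5, just under the lowest MNC library at 41.0, and a difference of -0.14 (SE 0.0644, limma adjusted p = 0.233). Tdrd6, at 117, 118 and 102 FPKM, had a difference of -0.12 (limma adjusted p = 0.328). The markers of spermatocytes were at 0.0706 in M5 and -0.0697 in MNC. After centring on them, Piwil1 (-0.42, limma adjusted p = 0.0422) and Tdrd1 (-0.28, limma adjusted p = 0.0351) were called and Ddx4 and Asz1 were not, while the median of all genes moved from 0.025 to -0.11. The other members overlapped between the groups, with values in M5 of 38.5, 34.7 and 39.0 FPKM for Piwil2, 33.3, 32.4 and 32.4 for Tdrd9, 21.3, 20.3 and 22.4 for Mov10l1, and 899.8, 882 and 767 for Mael.

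Of the 26 other pathway genes, 2 were called in M5 against MNC, 1 in each direction, where 2.76% of all genes were called higher and 2.89% lower. Rnf17, a Tudor-domain gene, rose from 70.0, 69.0 and 64.4 FPKM in MNC to 86.8, 83.7 and 78.7 in M5 (log2 difference 0.29, limma adjusted p = 0.0497). Kif17 fell from 111, 116 and 114 to 83.7, 92.1 and 89.3 (log2 difference -0.36, limma adjusted p = 0.0258). Neither was called when any library but M5 replicate 3 was left out. Mybl1 was at 20.03, 17.96 and 16.4 FPKM in M5, which overlapped MNC (log2 difference 0.11, limma adjusted p = 0.472). Genes of other cells and responses were also set beside these groups. The 5 red blood cell genes were at -0.716 in MNC and 1.87 in M5, without overlap (libraries -1.11 to -0.18 and 1.17 to 3.17). The 8 macrophage genes were at 0.154 and 0.514, with overlap (-0.11 to 0.605 and 0.138 to 1.16). The 10 interferon response genes were at 0.43 and 0.519, also with overlap (0.0614 to 0.875 and -0.029 to 1.04). In Con these lists were at -0.793, -0.256 and -0.6. The 10 Sertoli cell genes were at 0.203 in Con, -0.0116 in MNC and 0.053 in M5, and the 7 Leydig cell genes at 0.233, 0.0758 and 0.327. M5 replicate 3 was the highest M5 library in each of these lists. It was at 0.488 for Sertoli cell genes, where M5 replicates 1 and 2 were at -0.283 and -0.0459. For Leydig cell genes it was at 0.992, where they were at 0.0898 and -0.101. The part of these lists in the differences between M5 and MNC was not tested.

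M1 and M3 differed less from MNC. No member was called in either, where limma called 0% of all genes in M1 (862 at an unadjusted p under 0.05) and 0.00689% in M3. Ddx4 was at 203, 205 and 203 FPKM in M1, above all MNC libraries, as were 5.04% of genes, by 0.09 on the log2 scale (limma adjusted p = 0.819). In M3 it was at 216, 204 and 230.5 FPKM, again above all MNC libraries, as were 6.49% of genes (0.17, limma adjusted p = 0.518), with 0.13 left when M3 replicate 3 was left out. Asz1, at 15.8, 15.8 and 18.1 FPKM in M3, was higher by 0.20 (limma adjusted p = 0.518), and by 0.14 without that library. The M1 and M3 libraries overlapped those of MNC for Piwil1, Piwil2, Mov10l1, Tdrd1, Tdrd6, Tdrd9 and Mael.

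Each knockdown was then set against the others, which needs no shared control. No member was called between M5 and M1, against 6.75% of genes, or between M5 and M3, against 0.0138%. Ddx4 (0.16, limma adjusted p = 0.17) and Asz1 (0.20, limma adjusted p = 0.126) were above all M1 libraries in M5, as were 18.8% of genes. Ddx4 was called in 1 of its 17 alternatives, without M5 replicate 3 (0.21, limma adjusted p = 0.0301). Over all 17 its limma adjusted p reached 0.99. For Piwil1, the lowest M1 library, at 96.7 FPKM, lay just under the highest M5 library at 97.1 (-0.18, limma adjusted p = 0.209). Of the other pathway genes, Henmt1, which methylates the ends of piRNAs, was called lower in M5 than in M1, as were 3.52% of all genes. Tdrd6 was below all M3 libraries in M5, as were 8.52% of genes (-0.13, limma adjusted p = 0.44). Without M3 replicate 3, limma called 188 genes between M5 and M3 in place of 2, none of them a member, and the value of Tdrd6 was -0.14 (limma adjusted p = 0.411). Between M1 and M3 no member and no gene was called by limma, with 672 genes at an unadjusted p under 0.05. Without M3 replicate 3, 2 genes were called there and again no member.

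The genes with a profile most like that of Piwil1 were found over the 15 libraries by the mean absolute difference of centred log2(FPKM + 1) values, given as a description. They were Spats2 (0.0357), Edc4 (0.0485), Kctd7 (0.0491), Chfr (0.0492) and Zbtb49 (0.0497). Spats2 had a mean of 45.1 FPKM in Con and 34.2 in the injected libraries. Among the members the closest were Tdrd1 (0.0668) and Mov10l1 (0.0735), followed by Piwil2 (0.106), Tdrd6 (0.113) and Tdrd9 (0.114). Mael (0.168), Ddx4 (0.197) and Asz1 (0.201) were the least like it.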

How the data were processed

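Poly(A) RNA of 15 testis libraries was sequenced on an Illumina HiSeq 2500. Per the study's methods, reads were mapped with SOAPaligner 2.20 allowing 2 mismatches. The submitters' processing notes name mm10 and GENCODE M21. The authors deposited 1 table of FPKM values, to 2 decimals, with Entrez gene IDs, of which 21143 (89.9%) matched RefSeq names of GRCm38.p6. Counts and absolute depth are unknown. The steps of low values give a depth relative to the other libraries of 0.94 to 1.036, from 39 to 59 genes per library. Summed FPKM was 470243 to 513817.

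FPKM were analysed as log2(FPKM + 1), which understates changes of low genes. The 14514 genes that averaged at least 1 FPKM entered limma 3.58.1 (eBayes with trend) in R 4.3.3, 2 groups per fit, two-sided, adjusted over all genes, with a threshold of 0.05. The study's own test models counts and was not used. The fit was tested on simulated data. Piwil4 and the receptors were compared by exact permutation tests. Percent changes are of mean FPKM. All members are named, and other pathway genes if called, at most 6 per comparison, with Tdrd5 added after its values were seen. Marker values are per-library medians over a list, with no test. The members and lists were chosen with earlier results of these data known.

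Groups came from sample titles. For M5 replicate 2 the description points to the column of replicate 1, and its title was followed instead. Alternatives were a pseudocount of 0.1, filters of 0.1, 5 and none, centring, quantile normalization, no trend, all 5 groups in one fit, a replicate block, removal of the GC trend (GC known for 92.1% of genes), Con as control and leaving out each replicate. Leaving out M3 replicate 3 with Con as control was added after seeing the data. Protein sequences were not used here. Python 3.11.15 was also used.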

Additional observations from a re-analysis of the deposited data

Results flagged for a closer look

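Henmt1 differed between the M5 and M1 knockdowns in a direct test of the difference. It had 15.2, 15.2 and 13.9 FPKM in M5, 17.8, 19.7 and 18.7 in M1, 19.0, 16.7 and 19.8 in MNC and 21.4, 21.8 and 22.5 in Con. The log2 difference of M5 from M1 was -0.32 (SE 0.0696, limma adjusted p = 0.0455), where 3.52% of all genes were called lower and 6.75% in either direction. Henmt1 alone was called of the 26 other pathway genes tested, which is not above the share of all genes called in either direction. All 3 M5 libraries lay below all 3 M1 libraries, and the share of genes lower without overlap is not given here. It was lower than in MNC by -0.30 (limma adjusted p = 0.0956) and than in M3 by -0.35 (limma adjusted p = 0.338), which did not pass. Leaving out any library other than M5 replicate 3 ended the call.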

How the results depend on the processing

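Depth is unknown and 3 libraries per group limit what could be called. Except with Con in place of MNC, the counts below stand without the share of all genes called under each setting. Changes in them are therefore not read as particular to the pathway. In MNC against Con, the 6 members called became 8 with a filter of 5, 8 with all 5 groups in one fit, 7 with quantile normalization, 4 without the GC trend, 3 with median centring, 1 with centring on spermatocyte markers and 0 to 6 when a library was left out. The 7 other pathway genes called became 3 and 2 with these centrings, 11 with a filter of 5, 12 with all 5 groups in one fit, 4 without the GC trend and 0 to 7 when a library was left out. In M5 against MNC, where 0 members were called, 1 was called with quantile normalization, 2 with spermatocyte centring, 2 with all 5 groups in one fit and 0 to 1 when a library was left out. The 2 other pathway genes called there became 1 with the pseudocount of 0.1, 1 with a filter of 0.1, 1 with no filter, 0 with median centring, 0 with no trend, 0 without the GC trend, 5 with all 5 groups in one fit and 0 to 2 when a library was left out. In M5 against M1, members called went from 0 to 2 with spermatocyte centring and 0 to 1 when a library was left out, and other genes called from 1 to 0 with a filter of 0.1, no filter, median centring, quantile normalization, no trend or no GC trend, to 2 with a filter of 5 or all 5 groups, to 6 with spermatocyte centring and to 0 to 2 when a library was left out. With Con in place of MNC, members called were 6 in M5, 7 in M1 and 6 in M3 (5 without M3 replicate 3), and other genes called 10, 16 and 9 (4 without M3 replicate 3). Rnf17 (0.29) and Kif17 (0.31) in M5 and Kif17 (0.55) in M1 were called higher, and the rest of the 10, 16 and 9 lower. Of all genes, 12.3% were called lower in M5, 23.9% in M1 and 15.1% in M3.

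Directions turned for Mael in MNC against Con (0.11 with spermatocyte centring, 0.0092 without the GC trend) and in M5 against MNC (-0.0082 with median centring, -0.11 with spermatocyte centring, -0.079 without the GC trend, -0.014 to 0.10 when a library was left out, the lowest without M5 replicate 1). They also turned for Piwil2 (-0.047) and Tdrd9 (-0.072) in M5 against MNC, and for Ddx4 in M5 against M1 (-0.0091), with spermatocyte centring. With Con in place of MNC the sign differed for Piwil2 (-0.32), Tdrd9 (-0.34) and Mael (-0.063) in M5, Ddx4 in M1 (-0.16), and Ddx4 (-0.070, or -0.12 without M3 replicate 3) and Asz1 (-0.038, or -0.099 without it) in M3. The cause was not tested.

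Replicate numbers do not pair the libraries: deviations of same-numbered libraries correlated between -0.399 and 0.181, and in no comparison were all 3 over 0.1. With the replicate block, 0 members and 0 other pathway genes were called in MNC against Con, M5 against MNC and M5 against M1.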

Other observations

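The ratio of Piwil1 to Ddx4 FPKM, a pair chosen after its values were seen, was 0.6, 0.565 and 0.651 in Con, 0.537, 0.536 and 0.667 in MNC, 0.515, 0.528 and 0.475 in M1, 0.497, 0.541 and 0.402 in M3, and 0.401, 0.407 and 0.392 in M5. The M5 libraries had a narrow range, and M3 replicate 3 lay within it. That library also shares the Tmem89, H2ac23 and Fabp3 values of M5. The GC content is 53.6% for Piwil1 and 42.1% for Ddx4. The part of GC content or of that split in the ratio was not tested.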
